A study of Xenopus laevis with 20 samples.

Results

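The genes described here run the cell division cycle and license DNA for replication. They are the cyclins of the A, B, D and E types, the cyclin-dependent kinases and other *cdk* genes, the MCM and ORC families, the Cdc25 phosphatases, the Aurora kinases, and *plk1*, *wee1*, *wee2*, *cdc6*, *cdt1*, *gmnn* and *cdc20*. They were picked by gene symbol alone, ignoring the .L and .S endings that mark the 2 homeologous copies of a gene in the allotetraploid genome of *Xenopus laevis*, and inhibitors (*cdkn*) and *cdkal* genes were left out. The rule took 86 of 15491 probe sets, which stood for 71 symbols and 50 genes (of 6505 genes named on the array), and 20 of these genes had both homeologs on the array. Where a symbol had more than 1 probe set they are numbered, as in *wee1.S* (1 of 2). Homeologs are close in sequence, and 8 of the 86 probe sets carry a suffix that warns of probes shared between transcripts. The split between copies is thus uncertain. Called between stages among these were *cdk1.L*, *mcm6.2.S* (1 of 2), *ccne1.L* (3 of 3), *ccnb3.L* (2 of 2), *cdk2ap1.S* (2 of 2) and *plk1.S* (2 of 3). Those of *ccnb3.L*, *cdk2ap1.S* and *plk1.S* share the stem of their name with another probe set of the gene, so they may not be separate readings. A further probe set that carried the symbols of both *ccnb2* homeologs was left out.

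The arrays compared tissue from gastrulae at stage 10 and stage 11.5, with 2 clutches at each stage and each clutch used at 1 stage only. All embryos carried mRNA for eGFP. Ventral and dorsal parts of embryos with eGFP alone, cut across the middle, gave **Ven** and **Dor**, and ventral parts of embryos that also received a plasmid for *noggin*, *dkk-1* or both in the marginal zone of 1 ventral blastomere at the 4-cell stage gave **Nog**, **Dkk** and **Nog+Dkk**. Noggin is a secreted BMP antagonist and Dkk-1 a secreted Wnt antagonist, and both are made by the organizer of the dorsal side. Each of the 20 samples was RNA of 10 pooled parts on 1 array, so each of the 10 groups held 2 arrays, 1 per clutch, and **Ven** and **Dor** of a clutch were cut from the same embryos. The eGFP label, injected ventrally, showed that side at the later stage. Plasmid DNA is expressed only in part of the cells that inherit it, and plasmid without an insert was not among the samples, so the effect of a protein and that of the plasmid cannot be told apart. At stage 10, 2 arrays, **Nog+Dkk** and **Dkk**, are titled clutch 2 and labelled clutch 1 elsewhere, and they were kept as titled.

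Cyclins of the D and E types act with their kinases before and at the start of DNA synthesis, and those of the A and B types act from DNA synthesis to mitosis. Wee kinases hold Cdk1 inactive by phosphorylation and Cdc25 phosphatases remove that mark. The origin recognition complex, Cdc6 and Cdt1 load the MCM helicase on origins, a step called licensing, and geminin (*gmnn*) binds Cdt1 and stops loading again. The frog egg stores mRNA for most of this machinery for the fast cleavage cycles, which lengthen at the midblastula transition, before the first of the stages studied here. Several of the genes have a copy used from the egg store and a second used later: cyclin A1 and A2, *wee2* and *wee1*, *mcm3* and *zmcm3*, *mcm6* and *mcm6.2*.

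Values are log2 of the deposited intensities, and differences are log2 differences between group means with their standard error (SE). A probe set was called at an adjusted p below 0.1 in limma, over all 15491 probe sets. The labelled tissue bore its markers. Of 17 probe sets of dorsal genes, 13 were higher in **Dor** than in **Ven** at stage 10 and 16 at stage 11.5, and of 14 probe sets of ventral genes 7 and 9 were lower.

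Most of the change in these genes lay between stages. Of the 86 probe sets, 49 differed between stages, which is 57% against 36.6% of all probe sets tested. At stage 11.5, 16 of the 86 were higher, a share near the 16.4% of all probe sets. Lower were 33 of the 86, a share above the 20.3% of all. The counts by role below stand beside these same shares of all probe sets. The median change of the 86 was -0.17 on the log2 scale beside -0.04 for all probe sets. The 86 were more often bright: 72 had a mean log2 of 6 or more, beside 9768 of all 15491. The shares and medians of all probe sets, here and below, were not matched for level. The part of level in the differences from them was not tested. The stage comparison took the mean of the 5 conditions in each clutch and set clutches 3 and 4 against clutches 1 and 2, so a stage and its clutches cannot be told apart. In pooled tissue, fewer cells of a type and less RNA per cell cannot be told apart either.

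The change was shared by the conditions. The 10 arrays of one stage did not overlap the 10 of the other in 47 of the 86 probe sets, 16 higher and 31 lower at stage 11.5, and this held for 32.7% of all probe sets. Within a stage the means of the 5 conditions spanned a median of 0.196 at stage 10 and 0.224 at stage 11.5, and the median size of the stage change was 0.611 (all probe sets: 0.191, 0.229 and 0.298). With **Ven** arrays alone 43 of the 49 calls remained, and with **Dor** arrays alone 48. Leaving out a clutch left 39 to 44 probe sets called. The calls of 32 probe sets, 24 lower and 8 higher, held without any 1 of the 4 clutches.

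**Figure D1:**
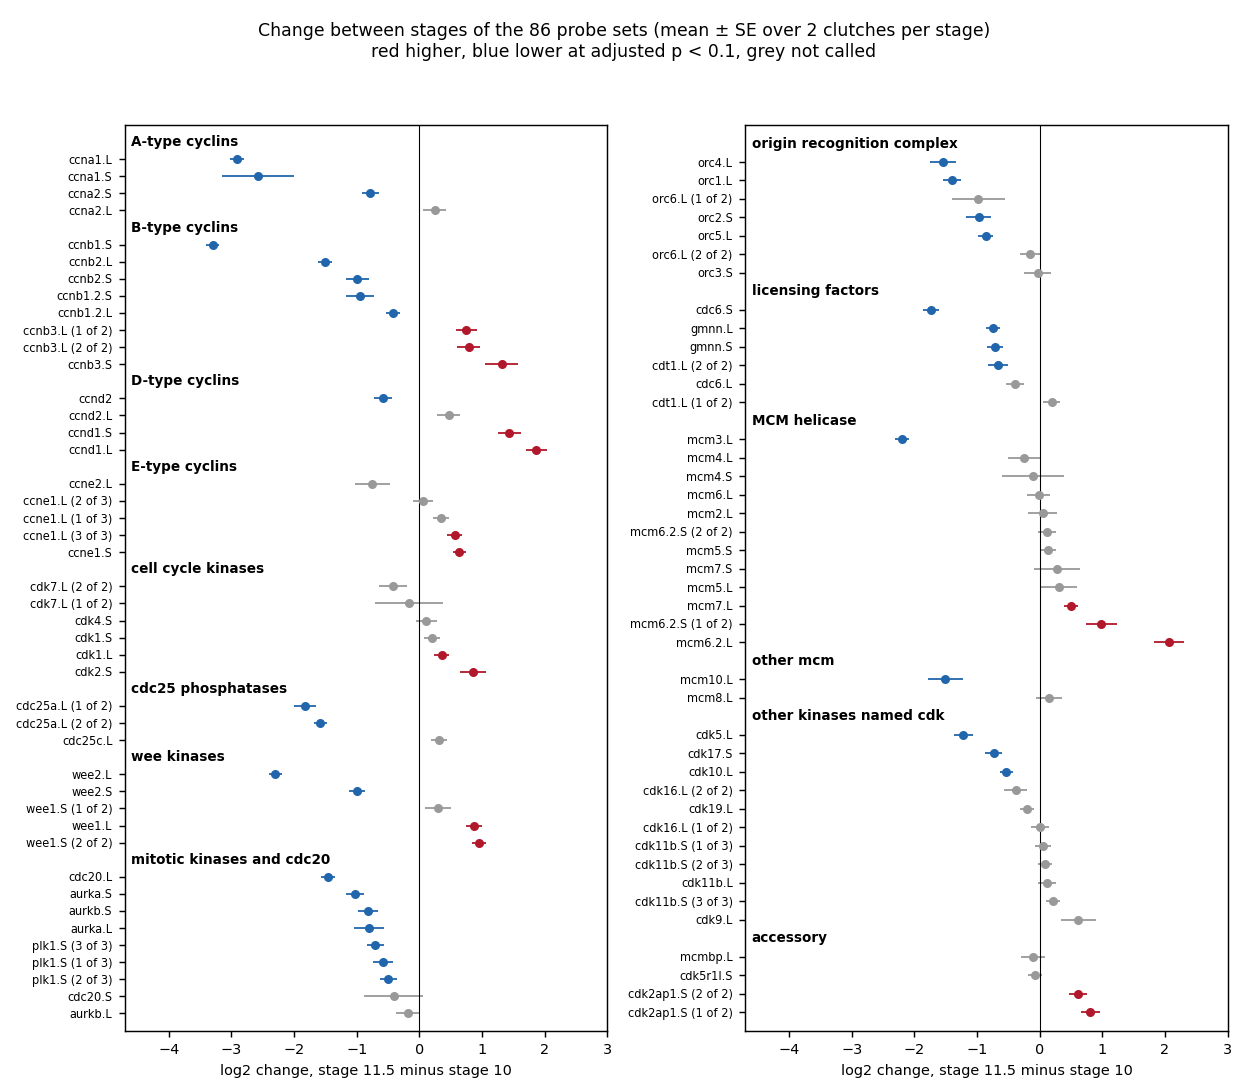
Log2 change from stage 10 to stage 11.5 for each of the 86 probe sets, grouped by role, with bars of 1 SE (2 clutches a stage). Red marks the 16 probe sets called higher, blue the 33 called lower and grey those not called. The B-type cyclins run from -3.30 to 1.31, and all 7 calls among the mitotic kinases and *cdc20* lie below 0.

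Among the mitotic cyclins, the largest falls of the whole set sat beside rises. *ccnb1.S*, a B-type partner of Cdk1 at entry into mitosis, read 11.41 to 11.83 (median 11.55) in the 10 arrays of stage 10 and 7.84 to 8.57 (median 8.33) in those of stage 11.5. The ranges lay far apart in every condition, and the mean fell by 3.30 (SE 0.108, adjusted p = 0.00255), a level 9.85-fold lower. *ccna1.L*, the egg's A-type cyclin, went from 11.13 to 11.49 (median 11.38) down to 7.96 to 8.68 (median 8.47), a change of -2.91 (SE 0.114, adjusted p = 0.00283). Its homeolog *ccna1.S* changed by -2.58 (SE 0.578, adjusted p = 0.0353). That value was uneven, since clutch 3 stood at 9.02 and clutch 4 at 7.28; without clutch 4 the change was -1.71, and without either stage 10 clutch the call was lost (adjusted p 0.119 and 0.122).

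Cyclin A2, which takes over from A1 in the embryo, was called in 1 of its copies. *ccna2.S* fell by 0.79 (SE 0.137, adjusted p = 0.0191), from a median of 9.75 to 8.95, and *ccna2.L* differed by 0.24 (SE 0.177, adjusted p = 0.392) with overlapping stages. Cyclin B2 fell in both copies, *ccnb2.L* by 1.51 (adjusted p = 0.00407) and *ccnb2.S* by 0.99 (adjusted p = 0.0217). The *ccnb1.2* homeologs fell by 0.42 (*ccnb1.2.L*, adjusted p = 0.0521) and 0.95 (*ccnb1.2.S*, adjusted p = 0.043). The former call was lost without any 1 clutch (adjusted p 0.114 to 0.186) and its size was -0.82 after cyclic loess scaling, whereas the latter was lost without clutch 1 or 2 (0.153 and 0.12). Cyclin B3, a divergent B-type cyclin, went the other way. *ccnb3.S* read 8.53 to 9.37 at stage 10, with a median of 8.90, and 9.97 to 10.55 later, with a median of 10.23, and it rose by 1.31 (SE 0.257, adjusted p = 0.0254). Both probe sets of *ccnb3.L* rose, by 0.75 and 0.78 (adjusted p = 0.037 and 0.0382); 1 was no longer called without clutch 1 or 2 (0.13 and 0.113) and the other without clutch 1 (0.144). All 8 probe sets of B-type cyclins were thus called, 5 lower and 3 higher, and of the 4 for A-type cyclins 3 were lower.

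The cyclins of the start of the cycle did not fall as a group. Cyclin D1, which carries growth signals to Cdk4, rose most. *ccnd1.L* read 6.92 to 7.86 at stage 10, with a median of 7.43, and 8.92 to 9.67 later, with a median of 9.24, a rise of 1.87 (SE 0.162, adjusted p = 0.00485), or 3.65-fold. *ccnd1.S* rose by 1.44 (SE 0.183, adjusted p = 0.00974). For cyclin D2 the probe set *ccnd2* fell by 0.58 (adjusted p = 0.0493, and 0.161 and 0.166 without clutch 1 or 4) at a dim level, with a median of 4.98 at stage 10, and *ccnd2.L* differed by 0.46 (adjusted p = 0.149). Cyclin E1, the Cdk2 partner at entry into DNA synthesis, was higher in *ccne1.S* by 0.64 (SE 0.103, adjusted p = 0.0165) and in 1 of 3 probe sets of *ccne1.L* by 0.57 (adjusted p = 0.0296, and 0.108 and 0.101 without clutch 1 or 4). The other *ccne1.L* probe sets differed by 0.34 and 0.06 (adjusted p = 0.123 and 0.841). *ccne2.L* differed by -0.75 (adjusted p = 0.118), and its clutches 3 and 4 stood at 7.73 and 8.51.

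**Figure D2:**
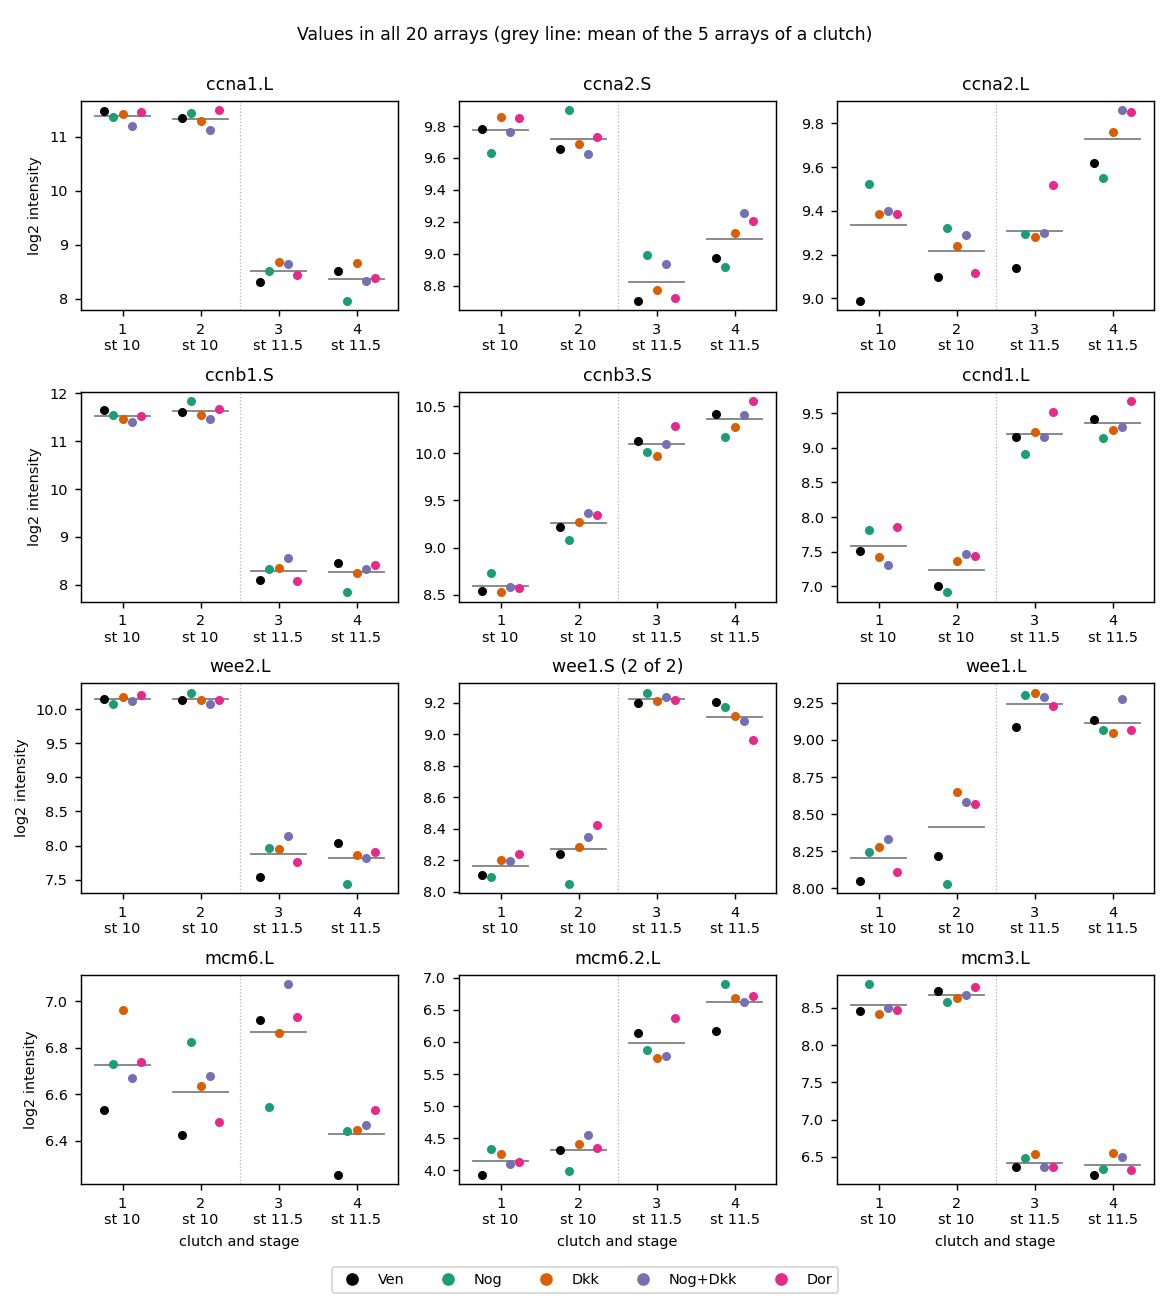
Log2 intensity of 12 probe sets in all 20 arrays, by clutch (1 and 2 at stage 10, 3 and 4 at stage 11.5), with a grey line at the mean of the 5 arrays of a clutch. Colours mark the 5 conditions, and each panel has its own vertical axis. *ccna1.L*, *ccnb1.S*, *wee2.L* and *mcm3.L* drop in all conditions, while *ccnb3.S*, *ccnd1.L*, both *wee1* probe sets and *mcm6.2.L* climb.

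Of 6 probe sets for the cell cycle kinases themselves, 2 were higher and none lower. *cdk2.S*, the kinase of cyclins E and A, rose by 0.85 (SE 0.209, adjusted p = 0.0438, and 0.149 and 0.117 without clutch 2 or 4), from a median of 6.58 to 7.54. *cdk1.L*, the mitotic kinase, rose by 0.35 at the edge of the threshold (SE 0.122, adjusted p = 0.0991), a call that no set of 3 clutches kept (adjusted p 0.154 to 0.32). *cdk1.S*, *cdk4.S* and both probe sets of *cdk7.L*, the kinase that activates other Cdks, were not called, with values from -0.42 to 0.21.

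Of the enzymes that switch Cdk1 on and off, 2 of 3 probe sets for Cdc25 phosphatases were lower, and of 5 for Wee kinases 2 were lower and 2 higher. *cdc25a.L*, a Cdk-activating phosphatase, fell in both of its probe sets. The first read 9.63 to 10.09 (median 9.78) and then 7.27 to 8.62 (median 7.82), and it fell by 1.83 (SE 0.179, adjusted p = 0.00566). The second fell by 1.58 (SE 0.105, adjusted p = 0.00357). *cdc25c.L*, whose product acts at mitosis, differed by 0.31 (adjusted p = 0.159). The kinase Wee2, the egg's form of Wee1 in the frog, went down: *wee2.L* read 10.08 to 10.24 at stage 10, with a median of 10.13, and 7.44 to 8.14 later, with a median of 7.88, a fall of 2.30 (SE 0.104, adjusted p = 0.00292). *wee2.S* fell by 0.99 (SE 0.126, adjusted p = 0.00952). The embryo's form went up. *wee1.L* read 8.03 to 8.65 (median 8.26) and then 9.04 to 9.32 (median 9.18), a rise of 0.87 (SE 0.130, adjusted p = 0.0136). *wee1.S* (2 of 2) rose by 0.95 (SE 0.115, adjusted p = 0.0088), and *wee1.S* (1 of 2) differed by 0.30 (adjusted p = 0.382).

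The genes of the Aurora kinases, Plk1 and Cdc20 fell where they moved. Of their 9 probe sets, 7 were lower and none higher. *cdc20.L*, the activator of the anaphase-promoting complex, fell by 1.46 (SE 0.115, adjusted p = 0.00414), from a median of 11.31 to 9.89. *aurka.S*, which acts on spindle poles, fell by 1.03 (adjusted p = 0.0114), *aurkb.S*, of the chromosomal passenger complex, by 0.82 (adjusted p = 0.0233) and *aurka.L* by 0.81 (adjusted p = 0.0662). The *aurka.L* value was -0.53 without clutch 2 (adjusted p 0.171) and was not called without clutch 4 either (0.195). The 3 probe sets of *plk1.S*, a kinase needed through mitosis, fell by 0.50 to 0.70, and 2 of these calls were lost when a clutch was left out (adjusted p 0.114 to 0.213). *cdc20.S* was not called (adjusted p = 0.591) and had clutch means of 11.44 and 10.05 within stage 10.

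Origin recognition and licensing genes fell where they moved as well. In the origin recognition complex 4 of 7 probe sets were lower. *orc4.L* read 8.14 to 8.92 (median 8.54) and then 6.72 to 7.15 (median 7.03), a fall of 1.55 (SE 0.212, adjusted p = 0.0113). *orc1.L*, an ATPase subunit, fell by 1.40 (SE 0.143, adjusted p = 0.00627), *orc2.S* by 0.97 (adjusted p = 0.0296) and *orc5.L* by 0.86 (adjusted p = 0.0111). *orc3.S* and both probe sets of *orc6.L* were not called, with values from -0.98 to -0.03.

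Of 6 probe sets for licensing factors, 4 were lower. *cdc6.S* went from 10.63 to 11.00 (median 10.85) to 8.94 to 9.24 (median 9.07), a fall of 1.74 (SE 0.125, adjusted p = 0.00388), and its homeolog *cdc6.L* differed by -0.40 (adjusted p = 0.11). Geminin fell by 0.74 in *gmnn.L* (adjusted p = 0.0142) and by 0.72 in *gmnn.S* (adjusted p = 0.0187). For *cdt1.L*, 1 probe set fell by 0.66 (adjusted p = 0.0418, and 0.146 and 0.13 without clutch 2 or 3) and the other differed by 0.19 (adjusted p = 0.379).

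The MCM helicase showed both the largest rise and one of the largest falls. *mcm3.L*, the form stored in the egg, read 8.42 to 8.82 at stage 10, with a median of 8.61, and 6.26 to 6.55 later, with a median of 6.37, a fall of 2.20 (SE 0.113, adjusted p = 0.00305). Its embryonic counterpart *zmcm3.L*, which the naming rule does not take in, had clutch means of 6.90 and 7.54 at stage 10 and 8.43 and 8.96 at stage 11.5, a rise of 1.48 (SE 0.291, adjusted p = 0.0256). *mcm6.2.L*, of the embryonic form of Mcm6, read 3.93 to 4.55 (median 4.29) and then 5.75 to 6.90 (median 6.27), a rise of 2.07 (SE 0.239, adjusted p = 0.00813) from a dim start. *mcm6.2.S* (1 of 2) rose by 0.98 (adjusted p = 0.0448, and 0.153 and 0.118 without clutch 1 or 4), and *mcm6.2.S* (2 of 2), at a median of 4.41 and 4.52, differed by 0.11 (adjusted p = 0.647). The egg's form *mcm6.L* overlapped between stages and differed by -0.02 (SE 0.181, adjusted p = 0.954). *mcm7.L* rose by 0.50 (adjusted p = 0.0378), a call lost without clutch 2, 3 or 4 (0.131, 0.14 and 0.1) and after cyclic loess scaling (0.23, adjusted p 0.261). The other 6 probe sets, for *mcm2.L*, *mcm7.S* and both homeologs of *mcm4* and *mcm5*, were not called and lay between -0.25 and 0.31, so that of 12 helicase probe sets 3 were higher and 1 lower.

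*mcm10.L*, which helps to start the helicase, fell by 1.51 (SE 0.278, adjusted p = 0.0218), and *mcm8.L* differed by 0.15 (adjusted p = 0.676). Among 11 probe sets for kinases named *cdk* that act mainly outside the cycle, 3 were lower: *cdk5.L*, a kinase known from neurons, by 1.22 (adjusted p = 0.00961), *cdk17.S* by 0.73 (adjusted p = 0.022) and *cdk10.L* by 0.53 (adjusted p = 0.0264, and 0.102 without clutch 1 or 3). The symbol rule also took 4 probe sets of accessory proteins, of which both for *cdk2ap1.S* rose, by 0.81 and 0.61 (adjusted p = 0.0223 and 0.0361). The smaller of these was not called without clutch 1, 2 or 4 (0.102, 0.127 and 0.119).

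Homeologs mostly kept to one direction. For each of the 20 genes with both copies measured, the brighter probe set of each copy was taken. In 6 genes both copies were lower at stage 11.5 (*aurka*, *ccna1*, *ccnb1.2*, *ccnb2*, *gmnn* and *wee2*), in 4 both were higher (*ccnb3*, *ccnd1*, *mcm6.2* and *wee1*), and in none were they called in opposite directions. In 7 genes 1 copy was called, and in 3 neither was. The same counts over all homeolog pairs of the array were not made. The dimmer probe sets of *wee1.S* and *mcm6.2.S* were not called, and *mcm6.2.S* (1 of 2), the one used, has the suffix for shared probes. Among the genes with both copies called, *aurka.L*, *ccna1.S*, both *ccnb1.2* copies, *ccnb3.L* and *mcm6.2.S* lost their calls in some fits without a clutch. *cdc6* and *cdc20* had unequal copies, with -0.40 in *cdc6.L* beside -1.74 in *cdc6.S*, and -1.46 in *cdc20.L* beside -0.41 in *cdc20.S*, a difference that was not tested.

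**Figure D3:**
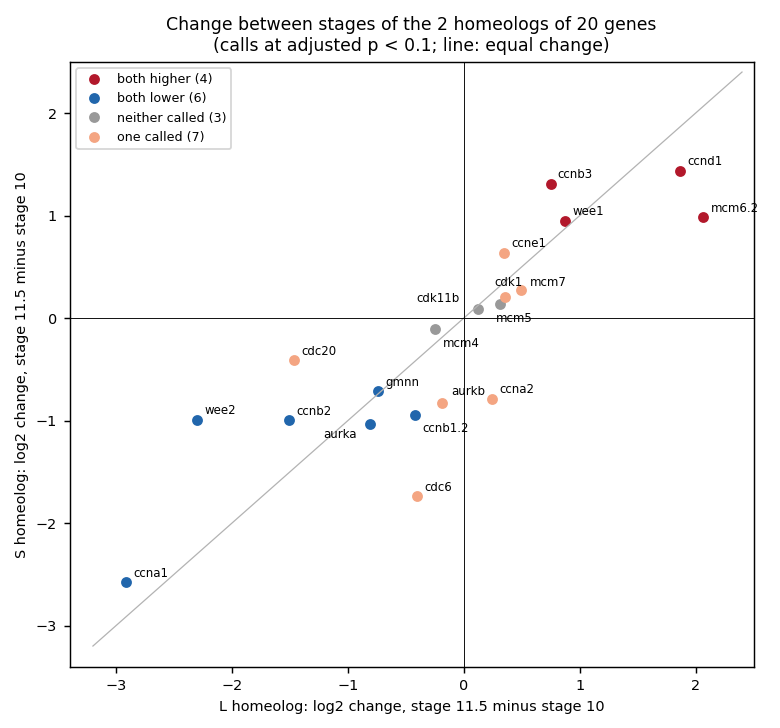
Change from stage 10 to stage 11.5 of the L copy (horizontal, log2) and the S copy (vertical, log2) for 20 genes, with a grey line at equal change. Blue marks 6 genes with both copies lower, red 4 with both higher, orange 7 with 1 copy called and grey 3 with neither. No gene has calls in opposite directions.

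The same stages were read in other cell cycle genes. Of 157 probe sets in 5 lists of textbook cell cycle genes outside the naming rule, 15 were higher and 62 lower, with a median of -0.29. Beside these and the lists below, 16.4% of all probe sets were higher and 20.3% lower, with a median of -0.04. In the list of replication fork genes 2 of 45 were higher and 18 lower, among them *cdc45.L*, which joins the active helicase, at -1.89 (adjusted p = 0.00316) and *rrm2.2.L*, of the enzyme that makes DNA precursors, at -1.87 (adjusted p = 0.0042). In the mitosis list 4 of 43 were higher and 19 lower, with *birc5.L* (survivin) at -2.92 (adjusted p = 0.00292) and the centrosomal kinase gene *nek2.S* at 2.34 (adjusted p = 0.00305). Of 27 probe sets for ubiquitin ligases and partners 1 was higher and 8 lower, led by *anapc10.L* at -1.94 (adjusted p = 0.00305). Of 22 for inhibitors and checkpoint genes 2 were higher and 11 lower, with the checkpoint kinase *chek1.S* at -2.53 and -1.63 in its 2 probe sets (adjusted p = 0.00529 and 0.0106) and *e2f1.L* at -1.87 (adjusted p = 0.00648). Of 21 for other cyclins 6 were higher and 6 lower, with *ccng2.L* at -1.73 (adjusted p = 0.00504) and *ccnt2.S* at 0.88 (adjusted p = 0.0297).

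Against the stage, the conditions moved few of these genes. All changes that follow are against **Ven** of the same clutch, so the 4 comparisons of a stage share their **Ven** arrays. At stage 10 no probe set of the 86 was called in **Nog**, **Nog+Dkk** or **Dkk**, where limma called 0.129%, 0.271% and 0.0452% of all probe sets. At an unadjusted p below 0.05, 9 were higher and 1 lower in **Nog**, 6 and 1 in **Nog+Dkk**, and 5 and 0 in **Dkk**. The share of all probe sets at that unadjusted p was not counted, so these counts have no background. Rank products at a 10% false discovery rate took none. In **Dor** 1 was called, against 0.684% of all.

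At stage 11.5 there were 5 calls in **Nog** (4 higher, 1 lower), 4 in **Nog+Dkk** (all higher), 1 in **Dkk** and 2 in **Dor** (all higher). As shares these were 5.81%, 4.65%, 1.16% and 2.33% of the 86, near the 8.57%, 4.6%, 0.445% and 2.84% of all probe sets called. Their medians, from -0.02 in **Nog** to 0.04 in **Nog+Dkk** and **Dor**, lay near 0, as did those of all probe sets (-0.04 in **Nog+Dkk** to -0.01 in **Dkk**). Each call below used the clutch as a term in the fit. Without it none of these calls remained, in **Dor** at stage 10 as well. A fit of that kind drops the clutch matching, so differences between clutches enter its spread. Leaving out clutch 1 or 2 gave the stage 11.5 values of a fit to that stage alone. The arrays with conflicting labels are of stage 10, so leaving them out does not alter the size of a stage 11.5 change. It alters only the spread shared by all groups and its degrees of freedom. Of the 8 probe sets called in any of the 8 comparisons, rank products took *ccnd1.S* in **Dor** at stage 10 and *cdc25a.L* (1 of 2) in **Nog** at stage 11.5.

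**Figure D4:**
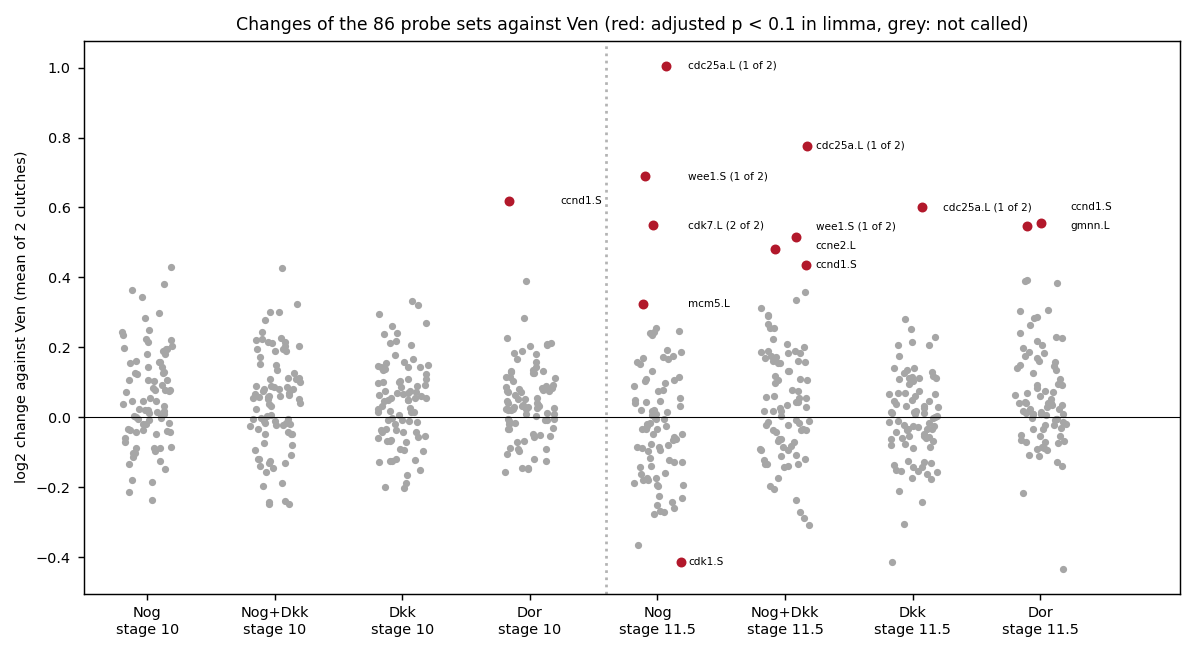
Log2 change against **Ven** of each of the 86 probe sets in the 4 other conditions at stage 10 (left) and stage 11.5 (right), as means of 2 clutches. Red and a name mark the calls at adjusted p below 0.1. At stage 10 only *ccnd1.S* in **Dor** is called, and the largest change of all is *cdc25a.L* (1 of 2) in **Nog** at stage 11.5.

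*ccnd1.S* was higher in **Dor** than in **Ven** at both stages. At stage 10 **Ven** read 8.15 in clutch 1 and 8.16 in clutch 2 and **Dor** 8.64 and 8.91, and at stage 11.5 **Ven** read 9.42 in clutch 3 and 9.93 in clutch 4 and **Dor** 10.04 and 10.41. **Dor** was the highest of the 5 conditions in all 4 clutches. The change was 0.62 (SE 0.118, adjusted p = 0.0128) at stage 10 and 0.55 (SE 0.118, adjusted p = 0.0138) at stage 11.5. The stage 10 call was lost without clutch 1 (0.75, adjusted p 0.227) or clutch 2 (0.49, adjusted p 1), and that of stage 11.5 without clutch 3 (0.48, adjusted p 0.291). In **Nog+Dkk** at stage 11.5, which read 10.02 and 10.19, the change was 0.44 (SE 0.118, adjusted p = 0.0595). It was 0.27 without clutch 3 (adjusted p 0.354), and leaving out clutch 1 or 2 also ended the call (0.148). At stage 10 *ccnd1.S* also lay above **Ven** in the ventral parts with plasmid, without being called. The changes were 0.43 in **Nog+Dkk** (adjusted p = 0.387), 0.34 in **Nog** (adjusted p = 0.452) and 0.11 in **Dkk**. The L copy of cyclin D1 was also above **Ven** in **Dor** of all 4 clutches, by 0.25 to 0.43, without being called.

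*gmnn.L* was the other dorsal call. **Ven** read 8.80 in clutch 3 and 9.08 in clutch 4 and **Dor** 9.59 and 9.38, again the highest of the 5 conditions in both clutches. The homeolog *gmnn.S* differed by 0.10 in **Dor** at stage 11.5 (SE 0.105, adjusted p = 0.837) and was not called. The change of *gmnn.L* was 0.55 (SE 0.129, adjusted p = 0.0304) at stage 11.5. It was 0.31 without clutch 3 (adjusted p 0.782), and the call was also lost without clutch 1 or 2 (0.138). Beside these values, the mean level of the 17 dorsal marker probe sets was 8.63 to 8.81 in **Dor** and 6.65 to 6.72 in **Ven** at stage 10, and 8.66 to 8.91 and 6.78 to 7.31 at stage 11.5. The part of cell composition in the dorsal calls was not tested.

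*cdc25a.L* gave the largest change under the antagonists, in 1 of its 2 probe sets. At stage 11.5 its first probe set read 7.27 in **Ven** of clutch 3 and 7.59 in **Ven** of clutch 4, the lowest of the 5 conditions in both. **Nog** read 8.28 and 8.58, **Nog+Dkk** 7.78 and 8.62, **Dkk** 7.76 and 8.29, and **Dor** 7.77 and 7.85. The changes were 1.00 in **Nog** (SE 0.138, adjusted p = 0.00127), 0.78 in **Nog+Dkk** (adjusted p = 0.00448) and 0.60 in **Dkk** (adjusted p = 0.0972). In **Dor**, without plasmid, the change was 0.385 (SE 0.138, adjusted p = 0.236) and was not called. All of these share the same **Ven** arrays. The **Nog** value stood at 0.99 without clutch 3 and 1.01 without clutch 4 and stayed called in every fit but that without the clutch term (adjusted p = 0.434). In **Nog+Dkk** the call was lost without clutch 4 (0.52, adjusted p 0.113). In **Dkk** it was lost without clutch 1, 2 or 4 (0.407, 0.407 and 0.235) and without the arrays with conflicting labels (0.204) or after cyclic loess scaling (0.131). The second probe set read 9.13 and 9.26 in **Ven** and 9.26 and 9.06 in **Nog**, and its changes were -0.03, -0.09 and -0.05. The probe sets of this gene thus disagreed under the antagonists, whereas both fell between stages.

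*wee1.S* showed the same kind of disagreement. *wee1.S* (1 of 2) read 6.33 and 6.71 in **Ven** of clutches 3 and 4, 7.02 and 7.39 in **Nog**, and 6.52 and 7.55 in **Nog+Dkk**. It was higher by 0.69 in **Nog** (SE 0.143, adjusted p = 0.0102), by 0.68 and 0.70 with clutch 3 or 4 left out. In **Nog+Dkk** it was higher by 0.52 (SE 0.143, adjusted p = 0.0645), a value of 0.19 without clutch 4 (adjusted p 0.654) and 0.84 without clutch 3, and the call was lost without clutch 1 or 2 (0.192) or without the arrays with conflicting labels (0.1). In **Dkk** and **Dor** this probe set also lay above **Ven**, by 0.28 and 0.29 (adjusted p = 0.658 and 0.488), without being called. *wee1.S* (2 of 2), the probe set that rose between stages, changed by 0.02 in **Nog** and -0.04 in **Nog+Dkk**.

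Further calls in **Nog** at stage 11.5 were small. *cdk1.S* read 8.22 and 8.02 in **Ven** and 7.68 and 7.72 in **Nog** and fell by 0.41 (SE 0.105, adjusted p = 0.0299). It stood at -0.29 without clutch 3 (adjusted p 0.276). In **Dkk** the change of *cdk1.S* was as large, at -0.42 (SE 0.105, adjusted p = 0.15), without being called. The homeolog *cdk1.L* changed by -0.36 in **Nog** (SE 0.127, adjusted p = 0.112) and was not called either. *cdk7.L* (2 of 2) read 6.07 and 6.18 in **Ven** and 6.38 and 6.98 in **Nog** and rose by 0.55 (SE 0.145, adjusted p = 0.0356). Without clutch 4 it stood at 0.31 (adjusted p 0.275), and without clutch 1 or 2 it was not called (0.122). The other *cdk7.L* probe set changed by -0.05. *mcm5.L* rose by 0.32 (SE 0.109, adjusted p = 0.0972), with 0.14 in clutch 3 and 0.51 in clutch 4, and leaving out clutch 1, 2 or 4 ended the call (0.193, 0.193 and 0.628), as did leaving out the arrays with conflicting labels (0.154). In **Nog+Dkk**, *ccne2.L* rose by 0.48 (SE 0.135, adjusted p = 0.0692), from 7.59 and 8.21 in **Ven** to 8.11 and 8.64. No set of 3 clutches kept that call (adjusted p 0.125 to 0.177).

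**Figure D5:**
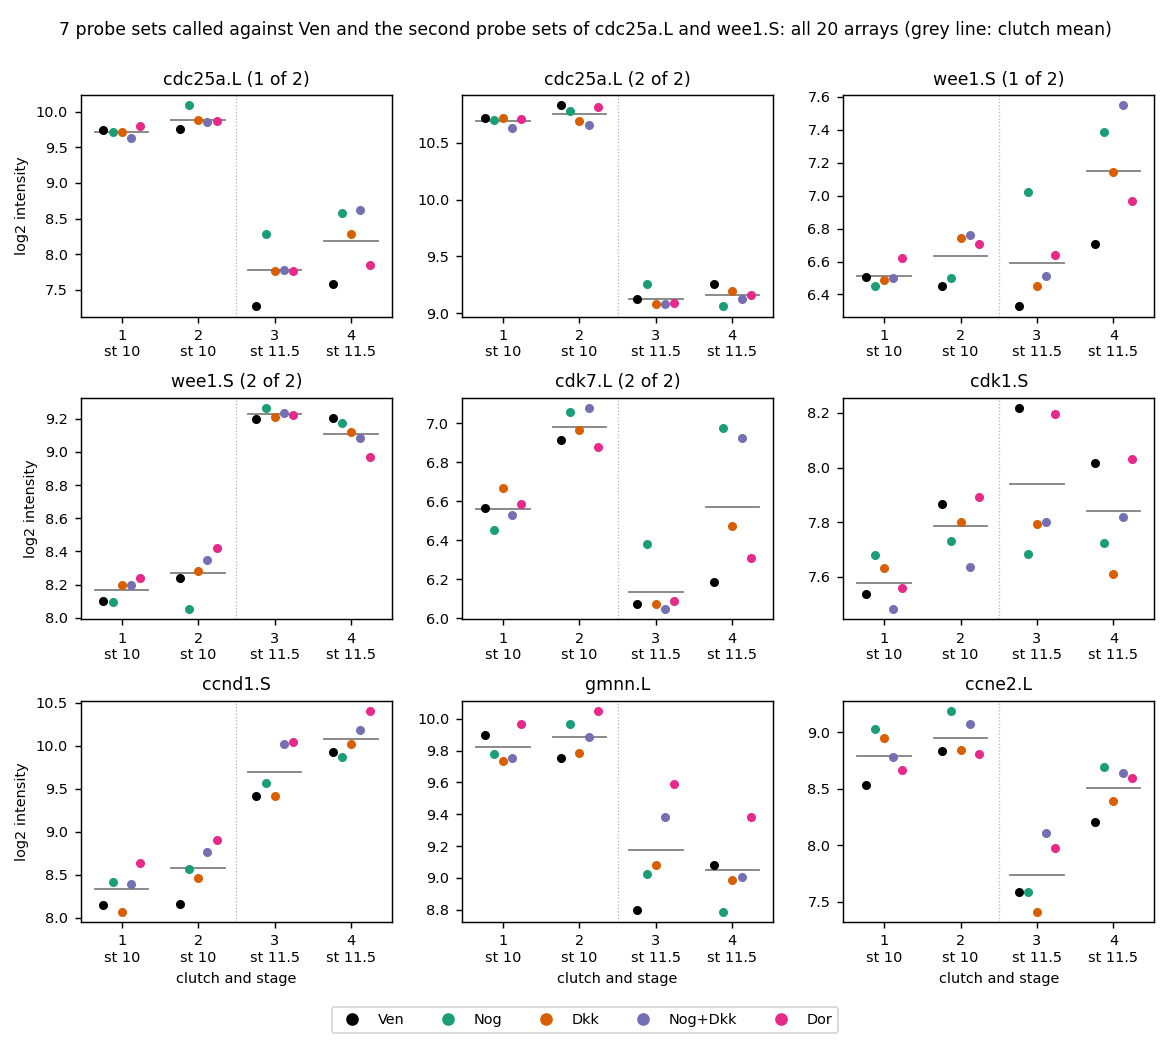
Log2 intensity in all 20 arrays, by clutch and condition, of 7 probe sets called against **Ven** and of the second probe sets of *cdc25a.L* and *wee1.S*. Grey lines are clutch means, and each panel has its own vertical axis. At stage 11.5 **Ven** (black) is the lowest of the 5 arrays of each clutch for *cdc25a.L* (1 of 2), and **Ven** and **Dor** lie above the plasmid-injected conditions for *cdk1.S*.

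Plasmid-injected parts (**Nog**, **Nog+Dkk**, **Dkk**) were also set against plasmid-free ones (**Ven**, **Dor**). All injected parts were ventral and **Dor** was dorsal, so this comparison mixes plasmid with the side of the embryo. Of the 17 dorsal marker probe sets, 11 were lower with plasmid at stage 10 and 6 at stage 11.5. Of the 14 ventral ones, 6 and 1 were higher. At stage 10 no probe set was called, where 0.613% of all were (rank products was not run here). At an unadjusted p below 0.05, 6 were higher and 1 lower, again without a background count. At stage 11.5 there were 5 calls, 3 higher and 2 lower, or 5.81% beside 6.77% of all. Both copies of *cdk1* were lower. The plasmid-free arrays of *cdk1.S* read 8.22 and 8.20 in clutch 3 and 8.02 and 8.03 in clutch 4, and the injected ones read 7.68 to 7.80 and 7.61 to 7.82, so the groups did not overlap in either clutch. *cdk1.S* fell by 0.38 (SE 0.068, adjusted p = 0.00663) and *cdk1.L* by 0.35 (SE 0.082, adjusted p = 0.0243). Leaving out a clutch kept the *cdk1.S* call (-0.45 to -0.31), while *cdk1.L* stood at -0.15 without clutch 3 (adjusted p 0.446) and -0.55 without clutch 4.

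The 3 higher probe sets were *cdc25a.L* (1 of 2) by 0.60 (SE 0.089, adjusted p = 0.00228), *wee1.S* (1 of 2) by 0.35 (adjusted p = 0.0421) and *cdk7.L* (2 of 2) by 0.32 (adjusted p = 0.0673). Without clutch 4 the last pair stood at 0.18 (adjusted p 0.341) and 0.09 (adjusted p 0.68), and without clutch 1 or 2 neither was called (0.142 and 0.18). The *cdk7.L* call was also lost without the arrays with conflicting labels (0.108). Without the clutch term no call remained. Of 12 probe sets for genes known as p53 targets, 3 were higher with plasmid at stage 10 and 4 at stage 11.5, none lower, led at stage 10 by *ccng1.L* (cyclin G1) at 1.69 (adjusted p = 6.05e-08) and *plk2.S* at 1.01 (adjusted p = 8.09e-07). Against **Ven** at stage 11.5, 5 of the 12 were higher in **Nog+Dkk**, 1 in **Nog** and 0 in **Dkk**, and 1 was lower in **Dor**. At stage 11.5 their mean level was 7.16 to 7.54 in the 6 injected arrays, 7.06 to 7.11 in **Ven** and 7.16 to 7.22 in **Dor**. Their part in the calls above was not tested.

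The 157 listed probe sets of other cell cycle genes held further calls at stage 11.5. In **Nog** 11 were higher and 12 lower (8.57% of all probe sets called), and **Nog+Dkk** had 9 higher and 3 lower (4.6% of all). **Dor** had 3 higher (2.84% of all) and **Dkk** 1 higher (0.445% of all), with none lower. 1 of 2 probe sets of *slbp.L*, the histone mRNA binding factor, was higher than **Ven** in every other condition, by 1.74 in **Nog** (adjusted p = 9.78e-05), 1.43 in **Nog+Dkk** (adjusted p = 0.000144), 0.94 in **Dkk** (adjusted p = 0.0212) and 0.83 in **Dor** (adjusted p = 0.0101). The second probe set differed by 0.09 to 0.28 and was not called. The homeolog *slbp.S* was higher in **Dor** by 0.53 (adjusted p = 0.0191) and in **Nog+Dkk** by 0.39 (adjusted p = 0.0966). It was not called in **Nog** or **Dkk**. In **Nog**, 1 probe set of *top2a.L* (topoisomerase II) was higher by 0.80 (adjusted p = 0.0167), the other differing by 0.50 (adjusted p = 0.145), and both of *anln.L* (anillin) were higher, by 0.68 and 0.36 (adjusted p = 0.00703 and 0.0577). Of the 27 probe sets for ubiquitin ligases and partners 7 were lower in **Nog** and 1 higher. Among these were the Cdk-binding subunits *cks1b.S* at -0.56 (adjusted p = 0.00514) and *cks2.S* at -0.48 (adjusted p = 0.00928), and *ube2c.S*, the E2 enzyme of the anaphase-promoting complex, at -0.52 (adjusted p = 0.0201). At stage 10 the single call of these lists in each of **Nog**, **Nog+Dkk** and **Dkk** was *ccng1.L*, at 1.56, 1.84 and 1.36 (adjusted p = 0.000347, 2.18e-05 and 0.00251).

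Whether a change against **Ven** differed between stages was tested directly. In **Nog** 1 of the 86 probe sets was called, against 1.56% of all, and in **Nog+Dkk**, **Dkk** and **Dor** none was, against 0.142%, 0.0129% and 0.523%. At an unadjusted p below 0.05 these held 7, 3, 5 and 1 probe sets, without a background count (rank products was not run on this difference). The call was *cdc25a.L* (1 of 2), whose change in **Nog** was -0.02 and 0.34 in clutches 1 and 2 and 1.01 and 0.99 in clutches 3 and 4, a difference of 0.84 (SE 0.196, adjusted p = 0.0721). Without clutch 1 it was 0.66 (adjusted p 0.776) and without clutch 2 1.03 (adjusted p 0.238). It was also lost without the clutch term and without the arrays with conflicting labels (0.134).

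Clutches of one stage also differed in many of these genes. Between clutches 2 and 1, 29 were higher and 15 lower in clutch 2, or 51.2% against 46.1% of all probe sets. Between clutches 4 and 3, 35 were higher and 15 lower in clutch 4, or 58.1% against 44.9%. These tests use the spread between conditions and not that between clutches. The differences were mostly smaller than those between stages, with 9 and 8 of the 86 probe sets past 1.5-fold beside 44 between stages. Of all probe sets 6.97% and 6.21% were past 1.5-fold between clutches and 28.9% between stages, so the array as a whole showed such a contrast too. The largest were *ccna1.S* at -1.74 (clutch 4 minus 3), *cdk7.L* (1 of 2) at 1.63, *cdc20.S* at -1.39 and *mcm4.S* at 1.32 (clutch 2 minus 1), each far larger than any change of these probe sets against **Ven**.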

How the data were processed

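The authors hybridised RNA to Affymetrix *Xenopus laevis* arrays and normalised them by RMA (robust multi-array averaging, which subtracts background, equalises the arrays' distributions and summarises the probes of a set). The deposited intensity values are linear and were turned to log2 here. The lowest was 4.67. Which RMA release they ran is not stated in the sources. Array number, not depth, limits precision, with 2 arrays a group. Control probe sets (120) were dropped. Symbols came from the platform annotation, with 2 updated through RefSeq (9304 probe sets had 1 symbol, 195 several and 5992 none).

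Changes were tested in limma 3.58.1 (R 4.3.3) on 10 groups with clutch as a block (8 residual and 9.82 prior degrees of freedom), since the study compared clutch-matched samples, and stages on 4 clutch means (2 and 2.66). Adjustment for multiple tests followed Benjamini-Hochberg, over all probe sets of a comparison. Arrays of 1 clutch deviated together (r of their deviations 0.681 to 0.841 at stage 10, 0.485 to 0.801 at stage 11.5). Alternatives were no block, a random block, single stages, rank products, a trended robust prior, cyclic loess, a minimum mean log2 of 6, adjusted p below 0.05, and leaving out clutches or arrays. Fits were also run on simulated data with known changes and the same clutch spread for every probe set. That run required only that the mean estimate for the largest rise put in came near it, so it does not measure false calls in the real arrays. Members, gene lists and tests were chosen with earlier results of these data known. Named were all members called against **Ven**, by plasmid or between stages in their change, those with the largest stage changes, 2 per role, all probe sets of these genes, and 2 to 4 genes per other list.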

Additional observations from a re-analysis of the deposited data

Results flagged for a closer look

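The change of *cdc25a.L* (1 of 2) in **Nog** against **Ven** was 0.84 larger on the log2 scale at stage 11.5 than at stage 10 (0.8442, SE 0.196, limma adjusted p = 0.0721 over all probe sets, same sign in both clutches of stage 11.5). It was flagged because the effect of 1 condition differed between stages in a test of the difference itself. Each stage had clutches of its own, from which it cannot be told apart, and the second probe set of the gene gave no such difference (0.0029).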

How the results depend on the processing

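Between stages, no setting moved the total of 49 calls by more than 1.5 times, but the 16 higher calls became 26 without the replicate block (with 39 lower) and 10 without clutch 1 (with 29 lower), and no call turned in sign. The setting without the block leaves out the clutch, although arrays of 1 clutch are not independent samples of a stage. Its larger counts are thus no firmer. Counts against **Ven** were less stable. Without the replicate block for clutch, 0 members were called in each of **Dor** at stage 10, **Nog**, **Nog+Dkk**, **Dkk** and **Dor** at stage 11.5, the plasmid comparison at stage 11.5 and the **Nog** difference between stages. Dropping the block also drops the clutch matching, and clutches of a stage differed in 46.1% and 44.9% of all probe sets. With stage 11.5 fitted alone, **Nog** had 3 calls, **Nog+Dkk** 1, **Dkk** 0 and **Dor** 1, and by rank products 1, 0, 0 and 0. At adjusted p below 0.05, **Nog+Dkk** had 1, **Dkk** 0 and the **Nog** difference 0; without the arrays with conflicting labels **Dkk** at stage 11.5 and the **Nog** difference had 0. The latter had 2 with a trended robust prior and 2 with dim probe sets left out. Leaving out clutches in turn gave 0 to 1 in **Dor** at stage 10, 3 to 11 in **Nog**, 1 to 4 in **Nog+Dkk**, 0 to 3 in **Dor** and 0 to 1 in **Dkk** at stage 11.5, 4 to 9 for plasmid at stage 11.5, 0 to 7 for the **Nog** difference, 0 to 1 for the **Nog+Dkk** difference and 39 to 44 between stages. All other counts stayed at 0. Only 2 arrays a group and 2 clutches a stage limit these counts, and a lone array was taken to vary like the other groups.

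Signs turned only in values that were not called. Leaving out clutches in turn gave, in **Nog**, -0.298 to 0.0036 for *mcm10.L* at stage 10 and, at stage 11.5, -0.54 to 0.0021 for *ccnb3.L* (1 of 2), -0.20 to 0.13 for *cdc25a.L* (2 of 2), -0.22 to 0.12 for *cdk7.L* (1 of 2) and -0.032 to 0.065 for *wee1.S* (2 of 2). It gave -0.12 to 0.037 for *wee1.S* (2 of 2) in **Nog+Dkk**, -0.082 to 0.0325 for *cdc25a.L* (2 of 2) and -0.20 to 0.057 for *cdk7.L* (1 of 2) by plasmid, and -0.16 to 0.17 for *cdc25a.L* (2 of 2) in the **Nog** difference. Between stages it gave -0.11 to 0.23 for *ccne1.L* (2 of 3), -0.021 to 0.24 for *mcm6.2.S* (2 of 2) and -0.064 to 0.36 for *mcm8.L*. In **Ven** alone *ccne1.L* (2 of 3) changed by -0.012 and in **Dor** alone *mcm6.2.S* (2 of 2) by -0.15. The causes were not tested.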
